A study of Mus musculus with 20 samples.

Results

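The 10 genes described here, Col1a1, Col1a2, Col3a1, Col5a1, Col5a2, Col11a1, Col6a1, Col6a2, Col6a3 and Col12a1, encode chains of the interstitial collagens of mouse. They were chosen by name, and all 10 were found by Ensembl identifier among the 45706 genes of the count tables. The samples were 8 tumors and 12 cell samples, all driven by the PyMT oncogene, in which the lysosomal protease cathepsin D (CTSD) was present or deleted. The tumors came from mice of 18 weeks on a C57BL/6N background, and groups of 4 were compared, namely control tumors (labelled WT, with CTSD-competent floxed or heterozygous alleles) and tumors of MMTV-cre;Ctsd-/- mice (labelled Ctsd-KO). In these mice the MMTV promoter drives both PyMT and cre, so that the deletion is directed to the mammary epithelium and stromal cells keep the gene. The cells were PyMT tumor cells of Ctsd+/+ (WT) or MMTV-cre;Ctsd-/- (Ctsd-KO) genotype that had immortalized spontaneously in culture. They were kept in medium with 1% fetal calf serum (FCS), a mild starvation, for 10 days (1% FCS) or for 12 weeks (1% FCS LT), and each of these 4 groups had 3 replicates. Each genotype was represented by 1 cell line, so that genotype and line cannot be told apart.

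Collagens are built from 3 chains wound into a triple helix. Type I collagen joins a pair of Col1a1 chains with a Col1a2 chain, type III is made of Col3a1 alone, and the minor fibrillar types V and XI, with Col5a1, Col5a2 and Col11a1, start and limit the fibrils. Type VI collagen, of Col6a1, Col6a2 and Col6a3, forms beaded filaments next to cells, and type XII collagen, of Col12a1, decorates fibril surfaces. In breast tumors most interstitial collagen is made by fibroblasts, and epithelial cells that have lost epithelial features can also express collagen genes.

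The stretches upstream of 4 of the starts are shown because the mean levels of these genes parted in Ctsd-KO cells of 12 weeks. Those of Col5a1 and Col6a2 were high and those of Col6a3 and Col3a1 low. The mean of Col6a2 rested on replicates 1 and 2, with 1295 and 315 reads, against 21 reads in replicate 3, which lay within the WT range. RefSeq promoter sequences of assembly GRCm38.p6 were found for 7 of the 10 genes, and Col1a1, Col5a2 and Col12a1 had no entry in the table. The last 150 bases before the start are printed 5′ to 3′, and capitals mark matches, on either strand, to any of 4 motifs. These were the CCAAT box (CCAAT), the GC box (GGGCGG), an E-box (CAGGTG) and the TATA box (TATAAA).
Col5a1 (chr2:27886275-27886424, plus strand): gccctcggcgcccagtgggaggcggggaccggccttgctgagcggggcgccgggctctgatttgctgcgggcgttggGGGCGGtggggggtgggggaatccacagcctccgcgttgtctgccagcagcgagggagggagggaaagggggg
Col6a2 (chr10:76623631-76623780, minus strand): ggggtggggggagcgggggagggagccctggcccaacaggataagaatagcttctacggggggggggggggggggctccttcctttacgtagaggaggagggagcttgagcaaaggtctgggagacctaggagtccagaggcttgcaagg
Col6a3 (chr1:90843972-90844121, minus strand): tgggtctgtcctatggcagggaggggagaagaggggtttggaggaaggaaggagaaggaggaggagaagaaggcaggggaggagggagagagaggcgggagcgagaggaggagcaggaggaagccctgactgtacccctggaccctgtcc
Col3a1 (chr1:45311388-45311537, plus strand): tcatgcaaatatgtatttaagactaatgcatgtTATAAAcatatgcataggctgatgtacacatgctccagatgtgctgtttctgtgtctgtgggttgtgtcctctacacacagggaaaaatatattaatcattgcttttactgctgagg
In the 250 bases before the start, the GC box was found at 2 places upstream of Col5a1 and at 1 place upstream of Col6a2, before the stretch shown. The TATA box was found at 1 place upstream of Col3a1, and none of the 4 motifs upstream of Col6a3. Of 32851 mouse promoters in windows of the same length, 33.8% held the CCAAT box, 32.7% the GC box, 17.2% the E-box and 12.4% the TATA box, counting both strands. CpG dinucleotides numbered 28 upstream of Col5a1, 6 upstream of Col6a2, 3 upstream of Col6a3 and 0 upstream of Col3a1, against a median of 6 over all promoters. The window before another RefSeq start of Col6a2 overlaps the gene as annotated, and held the GC box at 3 places and 14 CpG dinucleotides. The window of Col6a1, which was also called higher at 12 weeks, held none of the 4 motifs. The GC box was found at 2 places each in the windows of Col1a2 and Col11a1, which were not called higher. The windows of Col1a2 and Col6a1 also overlap the genes as annotated. These matches describe the letters of the windows only.

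Gene counts per tumor ranged from 49725437 to 64291587, and those per cell sample from 33622831 to 40239762. All 10 collagens passed the filter on low counts in both materials, among 18617 genes tested in tumors and 15178 in cells. Levels are given as CPM, the count as a share of the library's size after scaling with the trimmed mean of M-values (TMM), and 3 counts, taken as the floor, correspond to at most 0.0916 CPM. Floors cover counting error only. Ctsd lay at 1860, 2617, 1781 and 2532 CPM in the control tumors and at 797, 360, 1295 and 1233 CPM in the Ctsd-KO tumors. The groups did not overlap (log2 fold change (FC) -1.25, standard error (SE) 0.38, unadjusted p = 0.00776, adjusted p = 0.463 by edgeR's quasi-likelihood test). In cells Ctsd had 2775 ± 1468 (SD, n = 3) CPM in WT and 155 ± 32.9 CPM in Ctsd-KO at 1% FCS, and 1730 ± 145 CPM and 129 ± 19.4 CPM at 1% FCS LT. Ctsd RNA was thus lower in every sample labelled Ctsd-KO than in every WT sample of the same material, with reads left on the gene. Reads of single exons were not examined. All control tumors carry the same LR code in their sample descriptions and all Ctsd-KO tumors another, so that this code and genotype cannot be told apart, whereas in cells each code that occurs holds both genotypes. In cells one code holds 1% FCS samples alone (replicate 1 of both genotypes) and one holds LT samples alone (replicate 3 of both), so that the code is partly tied to culture time. Within the remaining 8 samples, which share a code, 4 of the 10 collagens were called over time in Ctsd-KO cells and 9 in WT cells. The share of all genes called among these 8 samples is not given here. They also leave out Ctsd-KO LT replicate 3, the lowest of its group for Col5a1, Col6a1 and Col6a2. The code and the choice of replicates thus cannot be told apart in these counts.

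The first comparison asked how cathepsin D deficient cells differed from WT cells in 1% FCS. A gene was called in cells when its log2 FC exceeded 1 in size and its adjusted p fell under 0.05 (edgeR). By this rule 9 of the 10 collagens were lower in Ctsd-KO cells and 0 were higher, whereas 14.6% of all genes tested were called lower and 10.3% higher. The median log2 FC of the 10 was -7.29, against 0.00 over all genes. Together the 10 genes took 7599, 8161 and 3616 CPM in WT replicates 1 to 3, and 125, 51.2 and 65.4 CPM in Ctsd-KO. The plot of the cell samples shows all 4 groups.

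**Figure D1:**
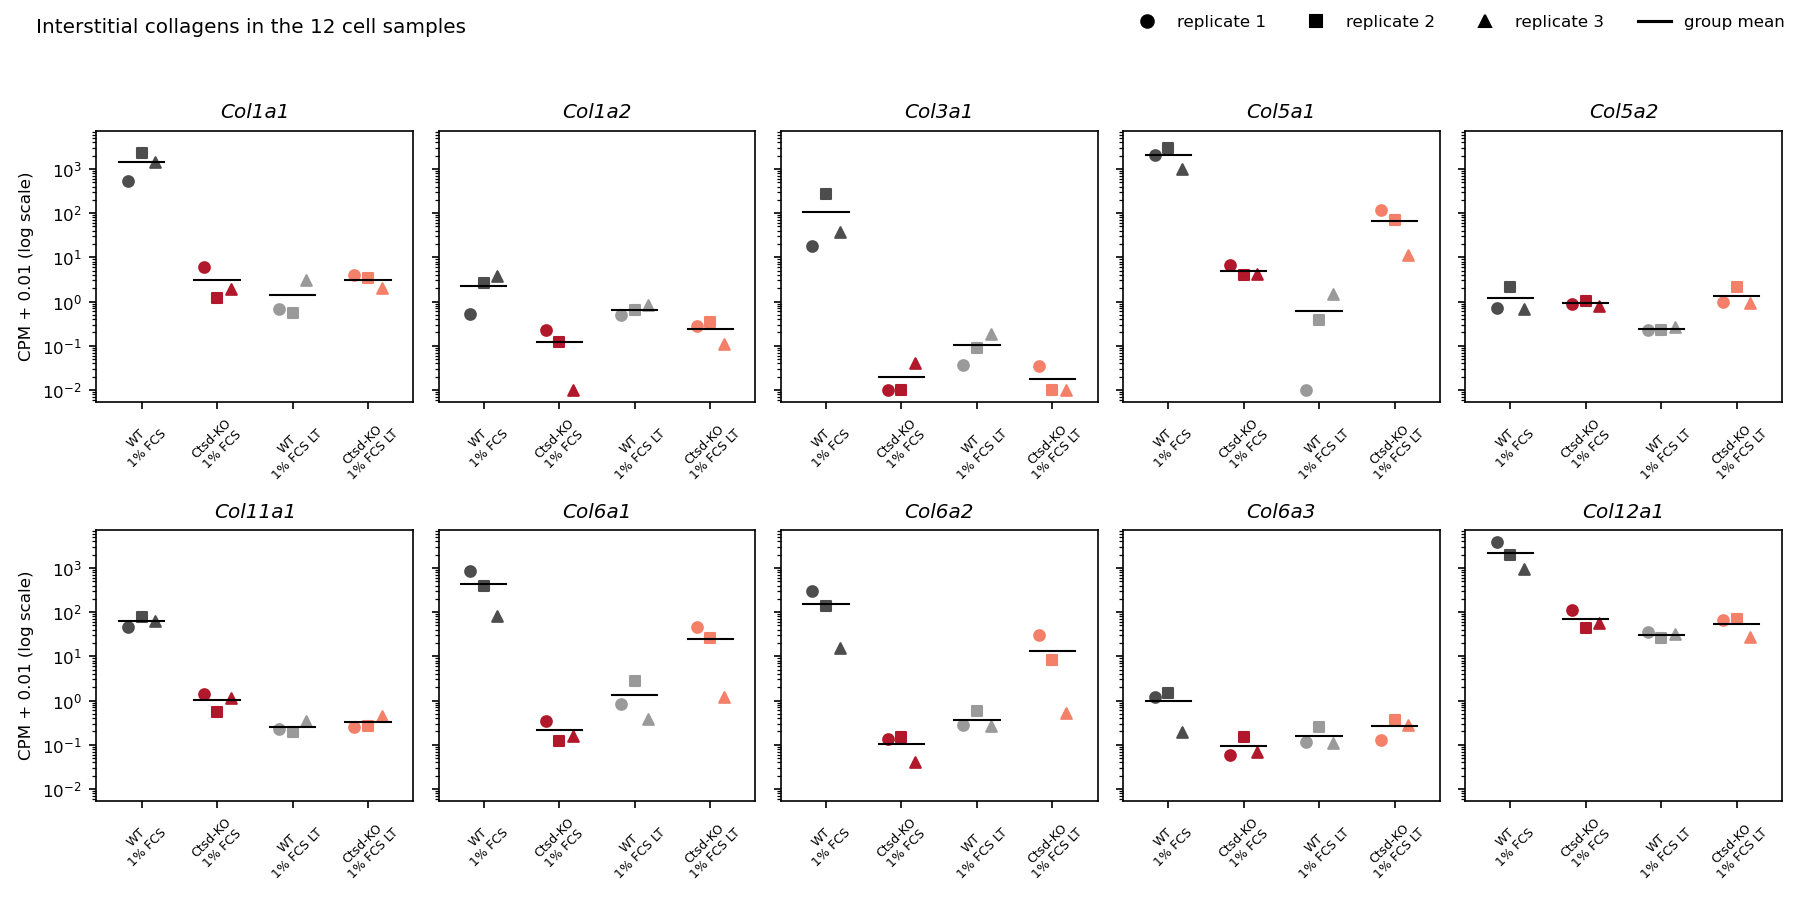
Level of each interstitial collagen in the 12 cell samples, as CPM + 0.01 on a log scale, by group, with a symbol per replicate and a line at the group mean. In WT cells in 1% FCS the mean of Col12a1 was 2226 CPM and that of Col5a1 2026 CPM, while Col1a2, Col5a2 and Col6a3 stayed at 3.69 CPM or below.

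Among the fibrillar chains, Col1a1 (chromosome 11, 94936224 to 94953042, GRCm38), the main chain of type I collagen, had 531, 2320 and 1460 CPM in WT cells in 1% FCS and 5.96, 1.2 and 1.95 CPM in Ctsd-KO. Each WT sample lay far above each Ctsd-KO sample (log2 FC -8.87, SE 0.896, adjusted p = 1.09e-05 by edgeR). Col5a1 (chromosome 2, 27886425 to 28039514), which starts fibril assembly, had 2057, 3000 and 1021 CPM in WT and 6.72, 4 and 4.29 CPM in Ctsd-KO. Again the groups were far apart (log2 FC -8.66, SE 1.03, adjusted p = 3.63e-05, edgeR). Col3a1 (chromosome 1, 45311538 to 45349706), the chain of type III collagen, had 18.4, 265 and 38.3 CPM in WT and 0, 0 and 0.0296 CPM in Ctsd-KO. No Ctsd-KO sample held more than 1 read, so the mean was at least 1209-fold lower (adjusted p = 2.70e-05, edgeR). Col11a1 (chromosome 3, 114030540 to 114220718), a chain of type XI collagen, had 47, 78.1 and 62.2 CPM in WT and 1.41, 0.548 and 1.12 CPM in Ctsd-KO. Its WT replicates varied by 24.9% of their mean (log2 FC -5.91, SE 0.345, adjusted p = 2.14e-07, edgeR).

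The other fibrillar chains were scarce in both genotypes. Col1a2 (chromosome 6, 4504814 to 4541544), the second chain of type I collagen, had 0.51, 2.6 and 3.69 CPM in WT and 0.219, 0.11 and 0 CPM in Ctsd-KO, and was called lower (log2 FC -4.28, SE 0.845, adjusted p = 0.0014, edgeR). Col5a2 (chromosome 1, 45374321 to 45503282), the second chain of type V collagen, had 0.69, 2.17 and 0.68 CPM in WT and 0.852, 1.04 and 0.798 CPM in Ctsd-KO. These ranges overlapped and the difference did not pass (log2 FC -0.39, SE 0.474, adjusted p = 0.524, edgeR).

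Type VI and type XII chains showed the same split. Col6a1 (chromosome 10, 76708792 to 76726168) had 846, 400 and 82.6 CPM in WT and 0.341, 0.11 and 0.148 CPM in Ctsd-KO (log2 FC -11.05, SE 1.6, adjusted p = 0.000156, edgeR). Col6a2 (chromosome 10, 76595762 to 76623630), which lies on the same chromosome, had 305, 138 and 15.2 CPM in WT and 0.122, 0.137 and 0.0296 CPM in Ctsd-KO (log2 FC -10.55, SE 1.74, adjusted p = 0.000414, edgeR). Both were high in all WT samples, with WT replicate 3 the lowest. Col6a3 (chromosome 1, 90765923 to 90843971), the largest type VI chain, reached 1.2, 1.44 and 0.183 CPM in WT and 0.0487, 0.137 and 0.0591 CPM in Ctsd-KO, low in both but without overlap (log2 FC -3.47, SE 0.776, adjusted p = 0.00311, edgeR). Col12a1 (chromosome 9, 79598991 to 79718831) had 3792, 1955 and 932 CPM in WT and 110, 43.9 and 57 CPM in Ctsd-KO (log2 FC -4.99, SE 0.576, adjusted p = 2.97e-05, edgeR). It was the collagen with most reads left in Ctsd-KO cells, making up 85.8% to 87.5% of the sum of the 10 genes.

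The WT cells in 1% FCS also stood apart in cell type markers. The 9 luminal epithelial markers summed to 1017 to 2163 CPM there and to 10375 to 12952 CPM in Ctsd-KO cells in 1% FCS, with Epcam, an epithelial adhesion molecule, at 148 ± 21.4 CPM against 813 ± 47.5 CPM (SD, n = 3). The 10 fibroblast markers summed to 176 to 726 CPM in WT and to 3.67 to 6.03 CPM in Ctsd-KO. In WT cells 3 of these 10 had more than 3 counts in every sample, led by the receptor Pdgfrb at 468 ± 277 CPM, while Thy1, Dpt and Lum, which mark tissue fibroblasts, had 0 counts in all 3 samples. The 9 pericyte and smooth muscle markers summed to 83.1 to 119 CPM in WT and to 25.3 to 57.5 CPM in Ctsd-KO. The part of these markers in the collagen differences was not tested. The white adipocyte markers summed to at most 0.0262 CPM in these WT cells. In bulk samples a change in the number of expressing cells and a change in RNA per cell cannot be told apart.

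Partner chains of one collagen type were measured against each other within each library, where scaling does not matter. In WT cells in 1% FCS, Col1a2 had 0.0961, 0.112 and 0.253 reads per 100 reads of Col1a1. In the 8 tumors it had 77.4 to 137. Col5a2 had 0.0335, 0.0723 and 0.0667 reads per 100 of Col5a1 in these cells and 244 to 536 in tumors. Col6a3 had 0.142, 0.359 and 0.222 reads per 100 of Col6a1 in these cells and 33.2 to 58.6 in tumors. For all 3 pairs the cells lay far below the tumors. Tumor and cell libraries differed in RNA input and strandedness, and the part of this in the ratios was not tested. The remaining pair was nearer, with 36.0, 34.4 and 18.4 reads of Col6a2 per 100 of Col6a1 in WT cells in 1% FCS against 49.1 to 69.2 in tumors. In WT cells in 1% FCS Col1a2, Col5a2 and Col6a3 were thus the scarce partners.

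**Figure D2:**
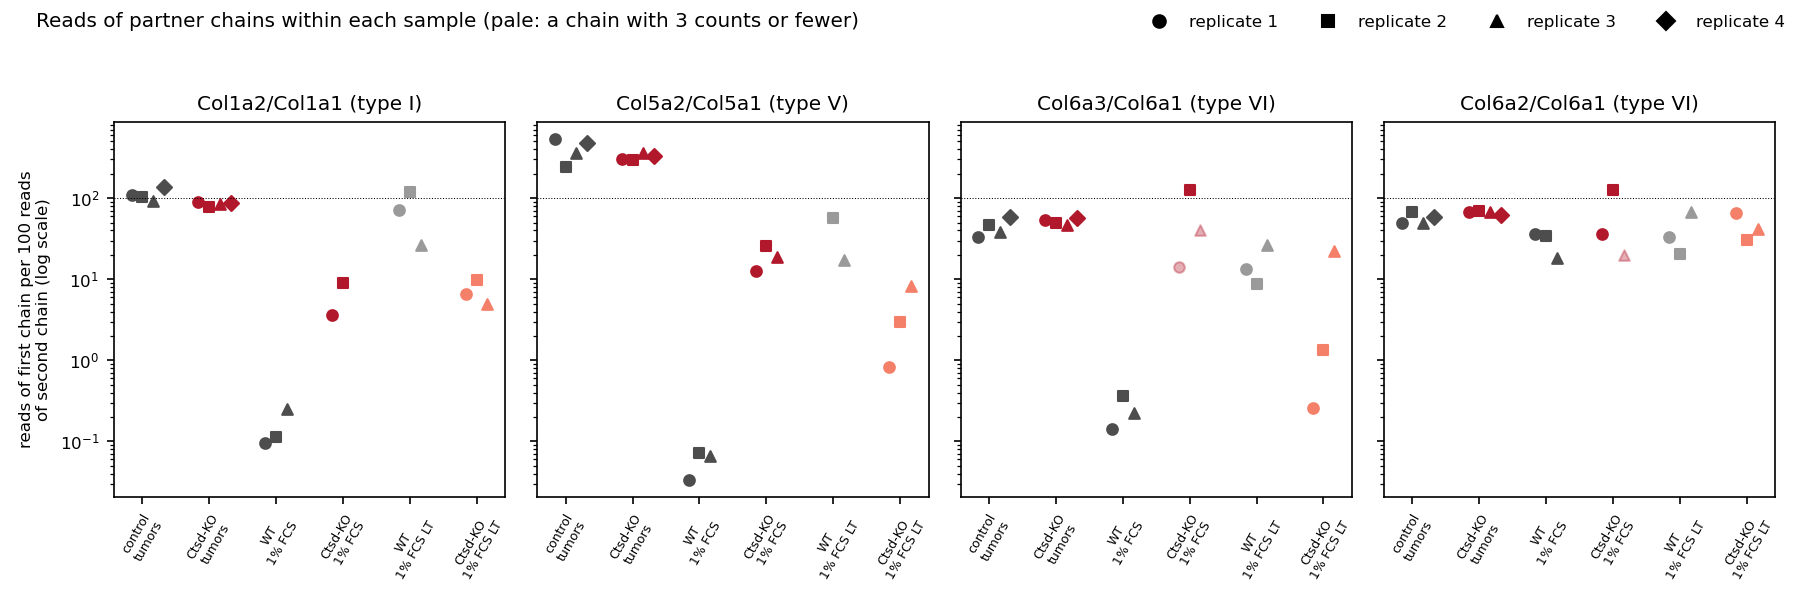
Reads of one chain per 100 reads of its partner within each sample (log scale) for 4 pairs, by group, with a symbol per replicate. The dotted line marks 100, pale symbols have a chain with 3 counts or fewer, samples in which a chain has 0 reads are not drawn, and WT cells in 1% FCS reach at most 0.359 in the first 3 pairs.

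After 12 weeks most of these transcripts were much lower in the WT cells. From 1% FCS to 1% FCS LT, 9 of the 10 collagens fell and 0 rose in WT cells (edgeR, same threshold), against 12.3% of all genes lower and 11.0% higher, with a median log2 FC of -8.19 against 0.00 over all genes. Col5a1 fell from 2026 ± 990 CPM to 0, 0.373 and 1.45 CPM (log2 FC -11.67, SE 1.19, adjusted p = 1.31e-05, edgeR). Col1a1 fell to 0.676, 0.533 and 3.04 CPM (log2 FC -9.97, adjusted p = 7.70e-06) and Col3a1 to 0.027, 0.0799 and 0.177 CPM (log2 FC -10.07, adjusted p = 3.95e-05). In each of these genes the highest LT sample lay far below the lowest 1% FCS sample. Col6a1 and Col6a2 fell to 1.3 ± 1.24 and 0.361 ± 0.172 CPM (log2 FC -8.41 and -8.71), and Col11a1 to 0.244 ± 0.0755 CPM (log2 FC -7.97). Col12a1 stayed the most abundant at 34.8, 26.5 and 32.1 CPM (log2 FC -6.16, adjusted p = 1.05e-05). The scarce chains changed least, with log2 FCs of -2.35 for Col5a2 and -2.62 for Col6a3, and -1.81 for Col1a2, which was not called (adjusted p = 0.0527). Of the called genes, Col6a3 was the one with overlapping groups. In WT LT cells the fibroblast markers fell, as the collagens did, to a sum of 1.97 to 4.74 CPM. The luminal markers rose to 5908 to 6380 CPM. The pericyte and smooth muscle markers rose as a sum to 386 to 568 CPM, but not all of the 9 rose. Of these 9, 3 had more than 3 counts in every WT LT sample. Acta2 fell from 28.2 ± 24.5 to 0.0169 ± 0.0293 CPM (at least 348-fold) and Cnn1 from 0.8 ± 0.39 to 0.0259 ± 0.0254 CPM. The part of these markers in the result was not tested.

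Ctsd-KO cells went another way between 10 days and 12 weeks. There 2 of the 10 collagens rose and 1 fell, against 1.11% of all genes higher and 0.369% lower. The median log2 FC was 1.00 over the 9 genes with a fold, against 0.00 over all genes. Col6a1 had 46.8, 26.6 and 1.21 CPM in LT against 0.341, 0.11 and 0.148 CPM in 1% FCS (log2 FC 6.90, SE 1.49, adjusted p = 0.0361, edgeR). Col5a1 had 116, 70.7 and 11.1 CPM against 6.72, 4 and 4.29 CPM (log2 FC 3.72, SE 0.834, adjusted p = 0.0422, edgeR). Col6a2 had 31, 8.11 and 0.508 CPM against 0.122, 0.137 and 0.0296 CPM and missed the threshold (log2 FC 7.02, SE 1.7, adjusted p = 0.0545). For these 3 genes the groups did not overlap, and LT replicate 1 was the highest and LT replicate 3 the lowest. Col11a1 fell from 1.03 ± 0.44 to 0.311 ± 0.108 CPM (log2 FC -1.72, SE 0.385, adjusted p = 0.0421, edgeR). Col1a1 (3.95, 3.37 and 1.96 CPM in LT) and Col12a1 (66.8, 68.7 and 26.8 CPM in LT) overlapped with their 1% FCS levels, and Col3a1 stayed at 1 read or none in every Ctsd-KO sample, for which no fold is given. These calls depended on single libraries. Of the 10, 0 were called without LT replicate 1 or LT replicate 2 of the Ctsd-KO cells, 0 without replicate 1 or replicate 3 of the Ctsd-KO cells in 1% FCS, 1 without replicate 2 of the Ctsd-KO cells in 1% FCS, of the WT cells in 1% FCS or of the WT LT cells, and 0 with limma-voom, where 2 had an unadjusted p under 0.05. DESeq2 called 4. The luminal markers summed to 10375 to 12952 CPM in 1% FCS and 7378 to 9718 CPM in LT Ctsd-KO cells, without overlap, and their part in the result was not tested. The fibroblast markers in Ctsd-KO LT cells summed to 99.1, 13.5 and 7.67 CPM in replicates 1 to 3, with Pdgfrb from 0.968 to 84.9 CPM, and their part in the result was not tested.

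Of the partner chains, Col6a3 and Col5a2 were not called over time in Ctsd-KO cells. In LT cells Col6a3 was at 0.12, 0.36 and 0.266 CPM, or 0.256, 1.35 and 22 reads per 100 of Col6a1, and Col5a2 at 0.958, 2.11 and 0.919 CPM, or 0.825, 2.99 and 8.3 reads per 100 of Col5a1.

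Compared with WT cells at 12 weeks, 4 of the 10 collagens were higher in Ctsd-KO cells and 0 lower, against 9.24% of all genes higher and 10.1% lower, with a median log2 FC of 0.95 against 0.01. Col5a1 was 109-fold higher in the means (log2 FC 6.73, SE 1.02, adjusted p = 0.000309, edgeR) and Col5a2 5.84-fold (log2 FC 2.53, SE 0.528, adjusted p = 0.00263), without overlap. Col6a1 was higher by a log2 FC of 4.26 (SE 1.18, adjusted p = 0.0131) and Col6a2 by 5.19 (SE 1.41, adjusted p = 0.0122). In both of these, Ctsd-KO replicate 3 lay within the WT range. Without WT LT replicate 1 the call of Col6a1 was lost (log2 FC 4.02), without Ctsd-KO LT replicate 1 that of Col6a2 (log2 FC 3.57), and limma-voom called 2 of the 10. Col1a1, Col1a2, Col11a1, Col6a3 and Col12a1 did not pass, with log2 FCs from -1.47 to 1.11, and Col1a2 was the one of these without overlap. Col3a1 had 1, 3 and 7 reads in WT and 1, 0 and 0 reads in Ctsd-KO LT cells and did not pass (adjusted p = 0.466).

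**Figure D3:**
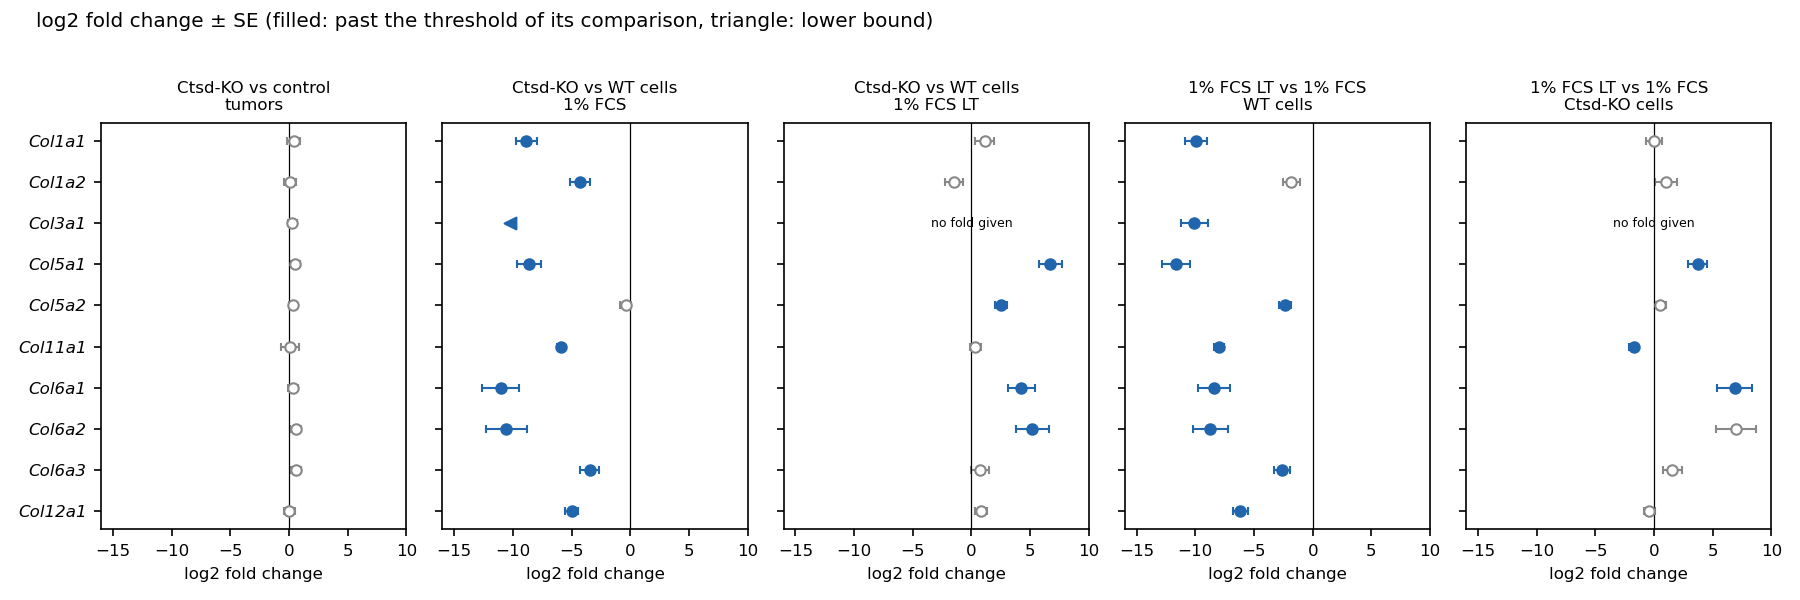
log2 fold changes of the 10 collagens with SE bars in 5 comparisons, with filled symbols for those past the threshold of that comparison and a triangle for a lower bound. Among fitted values the genotype difference in cells was negative at 1% FCS, down to -11.05 for Col6a1, and 4 genes were called higher at 1% FCS LT, up to 6.73 for Col5a1.

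The corrected comparison sets the change of Ctsd-KO cells over culture time against that of WT cells. It called 8 of the 10 collagens higher and 0 lower, against 11.0% of all genes higher and 8.12% lower. DESeq2 called 10 and limma-voom 6. The largest differences were those of Col6a2 (log2 15.73, SE 2.24, adjusted p = 0.00033, edgeR), Col5a1 (log2 15.39, SE 1.44, adjusted p = 1.94e-05) and Col6a1 (log2 15.31, SE 1.98, adjusted p = 0.000165). For Col5a1 this value is made of a log2 FC of 3.72 in Ctsd-KO cells and one of -11.67 in WT cells. Col1a1 gave 9.98 (SE 1.12, adjusted p = 6.24e-05) although Ctsd-KO cells had a log2 FC of 0.01 over the same time, the difference being that of the WT cells. Likewise Col11a1 gave 6.25 while it fell in Ctsd-KO cells, and Col12a1 gave 5.78 with a log2 FC of -0.38 in Ctsd-KO cells. Col5a2 (2.91) and Col6a3 (4.19) also passed, and Col1a2 (2.80, adjusted p = 0.0894) did not. Col3a1 (adjusted p = 0.469) did not pass either, and the size of its difference is not determined, since both Ctsd-KO groups were at the floor.

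Genes that act on collagen were described by 6 lists, of which those genes were tested that passed the filter on low counts, and a gene high in a single group can pass it. The counts of all 6 lists are to be read against the shares of all genes called, which were 14.6% lower and 10.3% higher in Ctsd-KO versus WT cells in 1% FCS, 12.3% lower and 11.0% higher over time in WT cells, 0.369% lower and 1.11% higher over time in Ctsd-KO cells, and 10.1% lower and 9.24% higher in Ctsd-KO versus WT cells at 12 weeks. Of 20 enzymes and chaperones of collagen processing 18 were tested. Of these 18 enzymes and chaperones of collagen processing, 12 were lower and 0 higher in Ctsd-KO cells in 1% FCS, with a median log2 FC of -1.61 against 0.00 over all genes. Serpinh1, which encodes the collagen chaperone HSP47, had 60.8 ± 17.5 CPM in WT and 0.732 ± 0.601 CPM in Ctsd-KO (log2 FC -6.33, adjusted p = 0.00127, edgeR). The prolyl hydroxylases P3h1 (log2 FC -4.19) and P4ha3 (log2 FC -3.97) were also lower. In contrast to the collagens, Serpinh1 did not pass in WT cells over 12 weeks, where it had 83.3 ± 28.7 CPM in LT (log2 FC 0.46, adjusted p = 0.709). In WT cells 9 of the 18 fell over culture time and 1 rose, among them P4ha3 (no read in LT, at least 33.5-fold lower), P3h3 (log2 FC -4.09) and Fkbp14 (log2 FC -3.62). In Ctsd-KO cells 0 of 18 passed over that time by edgeR (4 at an unadjusted p under 0.05), 1 by DESeq2 and 0 by limma-voom. Between genotypes at 12 weeks 3 were higher and 3 lower, with P4ha3 (at least 4.69-fold) and P3h3 (log2 FC 1.67) higher and the prolyl hydroxylase subunit P4ha2 lower (log2 FC -1.63).

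Of 13 genes for procollagen cleavage and crosslinking 12 were tested. Of these, 8 were lower and 1 higher in Ctsd-KO cells in 1% FCS, with a median log2 FC of -5.58. Lox, the lysyl oxidase that crosslinks collagen, had 949 ± 440 CPM in WT and 0.269 ± 0.134 CPM in Ctsd-KO (log2 FC -11.73, adjusted p = 3.18e-07, edgeR). Adamts2, which removes the amino-terminal propeptide, had 156 ± 114 CPM in WT and no read in Ctsd-KO, at least 1759-fold lower, and Tll1 was at least 245-fold lower. In WT cells 9 of 12 fell over 12 weeks, with Adamts2 (log2 FC -10.74), Lox (log2 FC -10.68) and Loxl1 (log2 FC -10.27) in front. Loxl4 went the other way, from 39.7 ± 11.5 to 1246 ± 97.9 CPM (log2 FC 4.97, adjusted p = 4.06e-07). Over that time in Ctsd-KO cells 1 of 12 rose, Adamts14 (log2 FC 4.09, adjusted p = 0.0277), a call that was lost with limma-voom, without any of the 3 Ctsd-KO 1% FCS replicates and without Ctsd-KO LT replicate 1 or 2. At 12 weeks 2 of 12 were higher in Ctsd-KO cells and 2 lower, against 9.24% and 10.1% of all genes. Loxl3 was higher (log2 FC 5.15, adjusted p = 0.00306) with 121 to 3365 counts per Ctsd-KO sample, while Lox was at least 7.33-fold lower and Loxl4 lower (log2 FC -2.54). The call of Lox was lost without WT LT replicate 3, and those of Lox and Loxl3 with limma-voom.

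Of 15 collagen-binding proteoglycans and fibril proteins 8 were tested, and these 8 were lower in Ctsd-KO cells in 1% FCS. They included Fbn1, the main microfibril protein (393 ± 186 CPM in WT and 0.0649 ± 0.112 CPM in Ctsd-KO), Prelp and Ogn (log2 FC -8.02 and -7.64). In WT cells 6 of 8 fell over 12 weeks, among them Postn (log2 FC -10.29) and Sparc (log2 FC -6.63), and 1, Tnxb, rose (log2 FC 6.38). At 12 weeks Postn (log2 FC 4.10) and Sparc (log2 FC 2.04) were higher in Ctsd-KO cells, while Fbn1 (log2 FC -5.28) and Tnxb (log2 FC -2.93) were lower, with 3 higher and 3 lower in all. Tnxb also rose in Ctsd-KO cells over culture time (at least 16.9-fold), as 1 of 8. The call of Postn at 12 weeks was lost without any of the 3 WT LT replicates or Ctsd-KO LT replicate 1.

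Of 14 collagen receptors and collagen-degrading enzymes 12 were tested. Of these, 5 were lower and 3 higher in Ctsd-KO cells in 1% FCS, against 14.6% and 10.3% of all genes. Mmp14, a membrane-bound collagenase, had 454 ± 134 CPM in WT and 0.363 ± 0.0871 CPM in Ctsd-KO. Unlike the collagens it did not fall with time, at 595 ± 69.9 CPM in WT LT and 0.355 ± 0.0949 CPM in Ctsd-KO LT (log2 FC between genotypes -10.29 and -10.70). The collagen uptake receptor Mrc2 (log2 FC -7.79) and the integrin chain Itga1 (log2 FC -5.84) were lower in 1% FCS. In WT cells 6 of 12 fell over culture time and 1 rose, with Mrc2 (log2 FC -6.94), Itga11 (at least 35.3-fold lower) and Itga1 (log2 FC -4.39) in front, and in Ctsd-KO cells 0 of 12 passed by edgeR (3 at an unadjusted p under 0.05), 1 by DESeq2 and 1 by limma-voom. At 12 weeks 3 were higher, with Mmp9 (log2 FC 4.66) and Itga11 (at least 3.44-fold) among them, and 2 lower. The call of Itga11 was lost without any of the 3 WT LT replicates, or without Ctsd-KO LT replicate 1 or 2.

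Of 34 other collagens 23 were tested. Of these, 15 were lower and 3 higher in Ctsd-KO cells in 1% FCS, and 10 fell and 4 rose in WT cells over 12 weeks. The basement membrane chains Col4a1 (4230 ± 1380 CPM in WT and 0.0711 ± 0.0381 CPM in Ctsd-KO) and Col4a2 (2154 ± 588 and 0.0727 ± 0.0793 CPM) led this list. They remained at 385 ± 52.3 and 461 ± 89.3 CPM in WT LT cells and at 0.132 ± 0.0197 and 0.204 ± 0.0956 CPM in Ctsd-KO LT cells, so that the genotype difference held its sign at 12 weeks, where that of Col5a1, Col6a1 and Col6a2 turned. Col5a3, the third chain of type V collagen, had log2 FCs of -11.92 between genotypes in 1% FCS and -11.78 over time in WT cells. Col4a3 (log2 FC -6.55) also fell and Col13a1 rose (at least 20.2-fold) in WT cells. Col23a1 rose in Ctsd-KO cells (log2 FC 4.10, adjusted p = 0.0277), as 1 of 23, and this call was likewise lost with limma-voom, without any of the 3 Ctsd-KO 1% FCS replicates and without Ctsd-KO LT replicate 1 or 2. Col4a6 was lower in Ctsd-KO LT cells (log2 FC -9.62). At 12 weeks 5 of the 23 were higher and 5 lower, against 9.24% and 10.1% of all genes.

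All 15 regulators of collagen transcription were tested. Of these, 5 were lower and 0 higher in Ctsd-KO cells in 1% FCS, and 8 fell and 0 rose in WT cells over 12 weeks, against 14.6% and 10.3%, and 12.3% and 11.0%, of all genes. Prrx1, a mesenchymal homeobox factor, had 49.6 ± 29.4 CPM in WT and no read in Ctsd-KO in 1% FCS, at least 559-fold lower. Creb3l1, a transcription factor of the endoplasmic reticulum, had 46.7 ± 18.9 and 0.544 ± 0.376 CPM (log2 FC -6.39). Twist2 was without a read in all 6 Ctsd-KO samples and had 13.1 ± 2.37 CPM in WT 1% FCS and 9.54 ± 1.34 CPM in WT LT cells. In WT cells Prrx1 (log2 FC -8.27), Creb3l1 (log2 FC -6.23) and Tgfb2 (log2 FC -5.61) fell. At 12 weeks Tgfb1, a growth factor that induces collagen genes, was the 1 gene higher (log2 FC 2.49) and Twist2 the 1 lower, and in Ctsd-KO cells 0 of 15 passed over time by edgeR (2 at an unadjusted p under 0.05), 1 by DESeq2 and 0 by limma-voom.

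**Figure D4:**
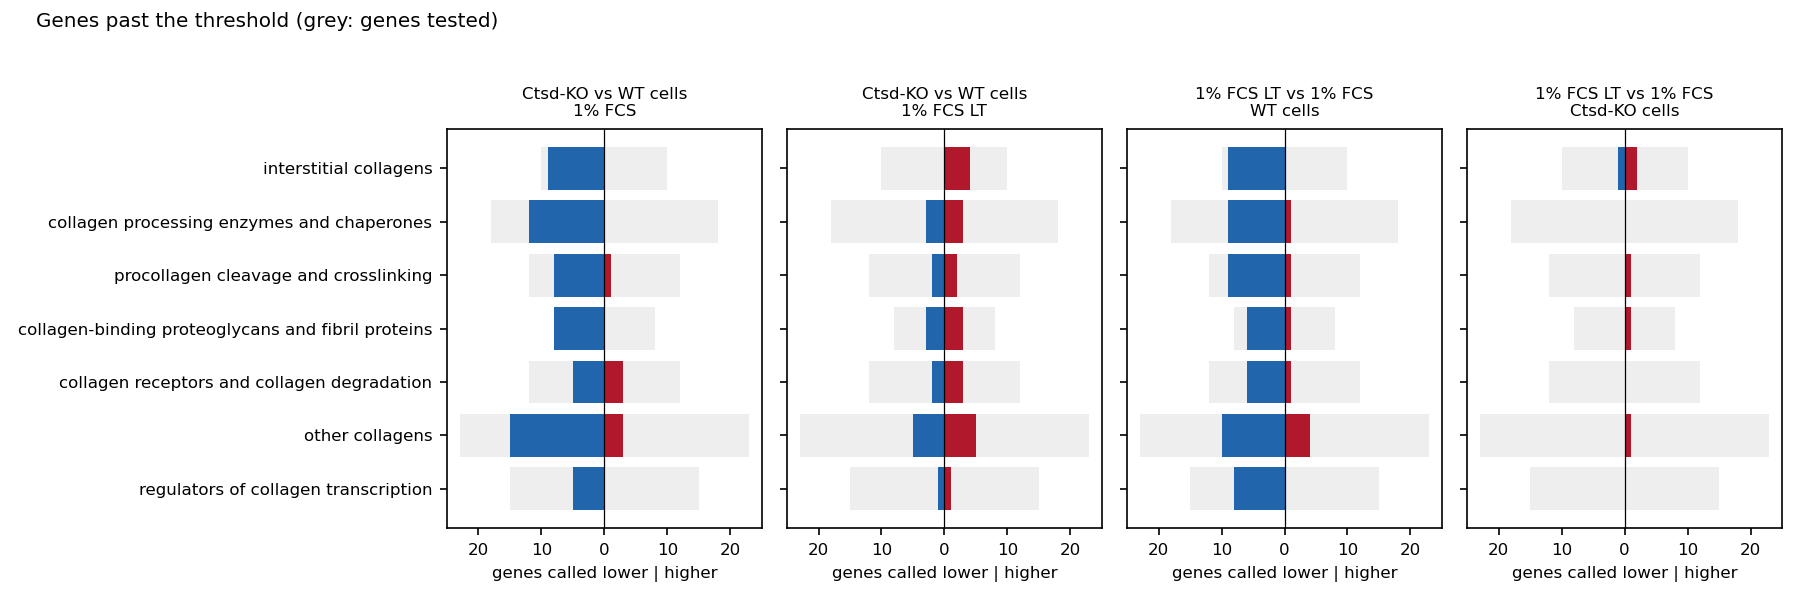
Number of genes called lower (blue, to the left) and higher (red, to the right) among the 10 interstitial collagens and in 6 lists of related genes, in 4 comparisons of cells, with the number tested in grey on both sides. In Ctsd-KO cells in 1% FCS 9 of 10 interstitial collagens and 15 of 23 other collagens were lower.

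Among the genes whose pattern over the 12 cell samples was closest to the mean profile of the 10 collagens, of 11487 genes, were Arsj, Igf1, Creb3l1 and Bgn. Closeness was the root mean square distance of gene-centred log2 CPM, which ran from 0.563 for Arsj to 0.638 for Bgn and from 0.861 for Col12a1 to 2.47 for Col5a1 among the collagens themselves. Arsj had mean levels of 20.6 CPM in WT and 0.104 CPM in Ctsd-KO cells in 1% FCS, and 0.0262 and 0.428 CPM at 12 weeks. Over the 8 tumors the closest of 12781 genes were Fn1, Bicc1, Atp2b1, Atp8b2 and Itgb4, with distances from 0.146 for Fn1, which encodes fibronectin, to 0.206.

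In tumors the question was whether deletion of Ctsd in the epithelium went with a change of the collagen transcripts of the whole tissue. All 10 were well expressed and 0 of the 10 passed at the unadjusted p under 0.1 used for tumors, whereas 8.44% of all genes passed as higher and 8.27% as lower. An adjusted p under 0.05 was reached by 0 of the 10 and by 0.00537% of all genes. At an unadjusted p under 0.05 the count was also 0 by edgeR, 0 by DESeq2 and 0 by limma-voom. The fitted log2 FCs were all above 0, from 0.01 for Col12a1 to 0.61 for Col6a3, with a median of 0.35 against 0.00 over all genes and adjusted p from 0.654 to 0.997.

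**Figure D5:**
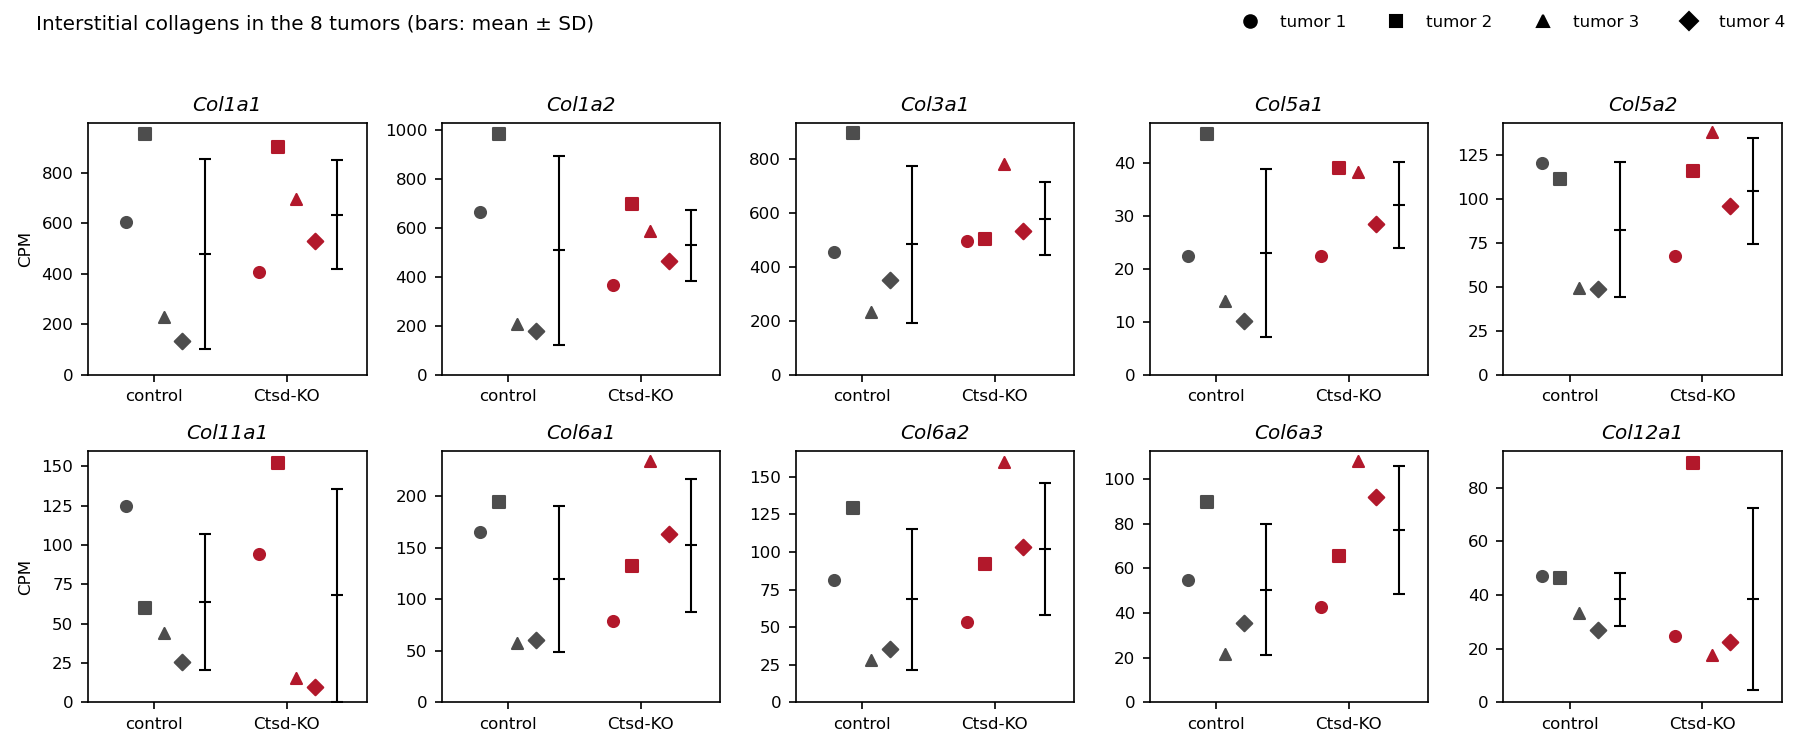
Level of each interstitial collagen in the 8 tumors in CPM, with a symbol per tumor and bars for the group mean and SD. The groups overlapped for all 10 genes, and control tumors 3 and 4 were the lowest for 8 of them.

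Col1a1 had 605, 953, 227 and 132 CPM in control tumors 1 to 4 and 405, 903, 698 and 529 CPM in Ctsd-KO tumors 1 to 4 (log2 FC 0.40, SE 0.543). Col3a1 had 454, 898, 232 and 352 CPM in control and 498, 503, 781 and 533 CPM in Ctsd-KO tumors (log2 FC 0.26, SE 0.382). In both genes control tumor 2 was the highest of all, and the control tumors spread over the whole range of the Ctsd-KO tumors. Col6a3, with the largest fitted difference, had 54.7, 89.8, 21.8 and 35.6 CPM in control and 42.9, 65.6, 108 and 91.7 CPM in Ctsd-KO tumors (log2 FC 0.61, SE 0.424, unadjusted p = 0.179, edgeR). Col6a1 had 165, 194, 57.2 and 60.7 CPM in control and 79.3, 132, 234 and 163 CPM in Ctsd-KO tumors (log2 FC 0.35, SE 0.453). The type VI chains thus shared their lowest tumor, control 3, and their highest, Ctsd-KO 3. Col11a1 varied most, 15.2-fold between the highest and the lowest tumor, with 125, 60.1, 44.1 and 25.7 CPM in control and 94.1, 152, 15.8 and 10 CPM in Ctsd-KO tumors. Col12a1 had 47.1, 46.2, 33.2 and 27.1 CPM in control tumors and 24.9, 89.4, 17.7 and 22.7 CPM in Ctsd-KO tumors, among which tumor 2 stood apart.

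Control tumors 3 and 4, the lowest for most collagens, had 15.5% and 18.8% of gene reads ambiguous between genes, against 8.62% to 12% in the other tumors, and control tumor 4 had the lowest total (49725437 counts). Control tumor 4 also had the highest sum of skeletal muscle markers, 868 CPM. The other control tumors had 1.61 to 16.1 CPM and the Ctsd-KO tumors 4.9 to 227 CPM. Its luminal markers were the highest as well, at 9939 CPM against at most 7388 CPM in the other tumors. The part of these differences in the values was not tested. The count of calls depended on single tumors. Without control tumor 2, 5 of the 10, namely Col1a1 (log2 FC 0.98), Col3a1 (0.74), Col5a1 (1.05), Col6a2 (1.08) and Col6a3 (1.05), passed the unadjusted p under 0.1, and Col6a3 passed without Ctsd-KO tumor 1 (log2 FC 0.82). Without Ctsd-KO tumor 2, Col12a1 passed in the other direction (log2 FC -0.82). The white adipocyte markers summed to 383 to 4070 CPM in control and 2774 to 16467 CPM in Ctsd-KO tumors, and with these markers in the model Col1a2, Col3a1, Col6a1, Col6a2 and Col6a3 turned to log2 FCs from -0.33 to -0.02, while Col11a1 passed (log2 FC 1.98). The fibroblast markers, all 10 above 3 counts in every tumor, summed to 264 to 840 CPM in control and 402 to 1088 CPM in Ctsd-KO tumors. They were lowest in control tumor 3 and highest in Ctsd-KO tumor 3, as were the type VI chains. Ctsd-KO tumor 3 was also highest for pericyte and smooth muscle (1943 CPM), basal epithelial (883 CPM) and endothelial markers (262 CPM). The lowest sums of these other lists lay in tumors other than control 3. The part of all these markers in the values was not tested.

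Ratios between chains in tumors were compared by a two-sided exact permutation test over all 70 arrangements of the 4 and 4 tumors. Col1a2 had 110, 103, 92.1 and 137 reads per 100 of Col1a1 in control and 90.4, 77.4, 84.3 and 87.7 in Ctsd-KO tumors. All Ctsd-KO tumors lay below all control tumors, with a mean log2 difference of -0.37 per length and an exact p = 0.0286, the smallest this design allows. Adjusted over the 8 ratios it was 0.229, which is as low as the smallest p for a single ratio can give here. Col6a2 had 49.4, 66.7, 49.1 and 58.3 reads per 100 of Col6a1 in control and 67.2, 69.2, 68.3 and 62.9 in Ctsd-KO tumors, which overlapped (log2 difference 0.27, exact p = 0.0571, adjusted 0.229). The other 6 ratios had exact p from 0.171 to 0.886 and adjusted p from 0.457 to 0.886.

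Per kilobase of exon, the order of the levels differed between tumors and cells. In control tumors Col1a1 (73 ± 57.3 CPM per kb, SD, n = 4), Col3a1 (49.3 ± 29.6) and Col1a2 (41 ± 31.1) came first, followed by Col6a1 (27.2 ± 16.1), and gaps between these neighbours were within their SD. Col5a1 (2.71 ± 1.87) and Col12a1 (2.52 ± 0.646) came last, as they did in Ctsd-KO tumors. In WT cells in 1% FCS Col5a1 (239 ± 117 CPM per kb, SD, n = 3), Col1a1 (219 ± 136), Col12a1 (146 ± 95.2) and Col6a1 (101 ± 87.6) came first, again with gaps within their SD. Between Col11a1 (4.9 ± 1.22), the seventh, and Col1a2 (0.182 ± 0.13), the eighth, the gap was larger than the SD. Col12a1 was first in Ctsd-KO 1% FCS (4.61 ± 2.29) and WT LT cells (2.04 ± 0.279), and Col5a1 (7.77 ± 6.2) in Ctsd-KO LT cells, where its gap to Col6a1 (5.68 ± 5.21) was within their SD. With the length of the principal transcript, 42 of the 60 places in these 6 orders were the same, and Col1a2 came first in control tumors. Tumor and cell levels were scaled separately and were not tested against each other.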

How the data were processed

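Gene expression was measured by RNA sequencing in 8 tumors and 12 cell samples. Trimmomatic and STAR (versions not given in the sources used here) were used by the authors for trimming and mapping to GRCm38, who deposited raw read counts per Ensembl gene without normalization. Counts regardless of strand were used for tumors, and counts on the opposite strand for cells, where 97.1% to 97.3% of strand-assigned reads lay. Rows that name no gene (unmapped, multi-mapping, without feature and ambiguous reads) stayed out, the ambiguous ones being 8.62% to 18.8% of gene reads in tumors and 3.88% to 4.1% in cells. Col5a1 shares 99 and 113 exon bases with opposite-strand genes and Col3a1 141 with a miRNA gene. Symbols came from GENCODE M21, in which 45143 of 45706 identifiers were found. Members and gene lists were chosen with earlier results of these data known.

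Counts were tested in R 4.3.3 with edgeR 4.0.16 (filterByExpr, TMM, two-sided quasi-likelihood test, Benjamini-Hochberg over all genes). The 12 cell samples were fitted together. Thresholds, taken from the study's methods, were an unadjusted p of 0.1 in tumors, and an adjusted p of 0.05 with an absolute log2 FC of 1 in cells. The study itself tested with limma, in place of which edgeR was used here, so calls at these thresholds can differ from those of the study. The study set the fold threshold for its corrected comparison together with an expression cut of 1.3, which was not part of the calls here. Genes in which a group had at most 3 counts in every sample received a lower bound against 3 counts in that group's smallest library. Named list genes were the up to 3 called members with the largest absolute log2 FC and no overlap, per list and cell comparison. Alternatives were DESeq2 1.42.0, limma-voom (limma 3.58.1), other scaling and filters, counts regardless of strand, covariates and left-out samples, and the models were tested on simulated data. Cell replicates share a line, so p-values measure only the spread between these samples. Replicate numbers were not taken to pair samples. The 5 genes with the pattern closest to the mean of the collagens were to be named in each material, and 1 of them is not reported here.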

Additional observations from a re-analysis of the deposited data

Results flagged for a closer look

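In the tumors, 36 groups of 4 values (10 genes and 8 ratios in each genotype) were examined for a tumor far from the others, and chance marks about 1 in 20 such groups. The gap of the extreme tumor to its neighbour, as a share of the whole range, exceeded the critical value of Dixon's test in 3 of them. Col3a1 was highest in Ctsd-KO tumor 3 (gap 0.874 of the range), Col12a1 was highest in Ctsd-KO tumor 2 (0.9), and the ratio of Col5a1 to Col1a1 was lowest in 1 Ctsd-KO tumor (0.897).

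The change from 1% FCS to 1% FCS LT differed between Ctsd-KO and WT cells for 8 collagens by the interaction test of edgeR. The log2 difference was 15.73 for Col6a2, 15.39 for Col5a1, 15.31 for Col6a1, 9.98 for Col1a1, 6.25 for Col11a1, 5.78 for Col12a1, 4.19 for Col6a3 and 2.91 for Col5a2.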

How the results depend on the processing

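Of the alternatives for single collagens, 266 of 269 kept direction and call in Ctsd-KO versus WT cells in 1% FCS, 241 of 248 at 1% FCS LT, 261 of 268 over time in WT cells, 159 of 204 over time in Ctsd-KO cells and 130 of 160 in tumors. With limma-voom 2 collagens were called at 1% FCS LT and 0 over time in Ctsd-KO cells. Leaving out 1 sample gave 0 to 5 calls in tumors, 9 in cells in 1% FCS, 3 to 4 at 1% FCS LT, 0 to 4 over time in Ctsd-KO cells, 9 to 10 in WT cells and 8 to 9 for the corrected comparison. With a covariate for white adipocyte or for luminal markers 1 collagen was called in tumors. The adipocyte covariate turned the log2 FC of Col1a2 (-0.02), Col3a1 (-0.33), Col6a1 (-0.27), Col6a2 (-0.15) and Col6a3 (-0.25). Col11a1 turned with limma-voom (-0.48) and the luminal covariate (-0.55), and Col12a1 with limma-voom (-0.29), the luminal covariate (-0.15) and a filter at an average log2 CPM of 1.3 (0.00). Without 1 tumor the log2 FC ranged from -0.22 to 0.59 for Col1a2, from -0.67 to 0.65 for Col11a1 and from -0.82 to 0.25 for Col12a1, and the log2 ratio from -0.55 to 0.06 for Col3a1/Col1a1 and from -0.24 to 0.11 for Col5a1/Col1a1. Without 1 cell sample Col5a2 ranged from -0.69 to 0.39 between genotypes in 1% FCS, and Col1a1 from -0.37 to 0.97 and Col12a1 from -0.62 to 0.10 over time in Ctsd-KO cells. Among samples of the most frequent LR code the last was 0.43. The cause of these shifts was not tested.

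No 2 groups had all correlations between samples of the same replicate number over 0.1. They ran from -0.30 to -0.01 in tumors. Between genotypes in 1% FCS they ran from 0.10 to 0.36, the lowest being just under the limit, and those of Ctsd-KO LT cells with both 1% FCS groups were also all positive (0.07 to 0.25 and 0.08 to 0.19). With a replicate block 0 collagens were called in tumors, 9 in cells in 1% FCS, 4 at 1% FCS LT, 2 over time in Ctsd-KO cells, 9 in WT cells and 8 for the corrected comparison. With the replicate block Col11a1 (-0.51) and Col12a1 (-0.29) turned in tumors. Depth limited the collagens with few reads, among them Col1a2, Col3a1, Col6a1, Col6a2 and Col6a3 in Ctsd-KO cells in 1% FCS, Col3a1 in LT cells and Col5a1 in WT LT replicate 1.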
